A study of Drosophila melanogaster with 2 samples.

Results

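The summits described here are 3000 positions at which the ChIP-seq signal of the transcription factor sugarbabe (sug) was found again in both replicates but which fell below the irreproducible discovery rate (IDR) threshold of the authors. Of the 30000 summits called on the pooled reads, the 9342 with the highest signal make up the thresholded IDR set, and 20658 fall below it. Of these, 8393 have a partner in each replicate's list, meaning a summit at most 100 bp away. The 3000 highest of them in pooled signal, called members here, were chosen by that signal and by the positions of the replicate summits. The IDR set was not chosen by such partners, and 8419 of its 9342 summits have both. Chromatin was precipitated with an antibody against GFP from whole Drosophila melanogaster embryos of both sexes, aged 8 to 24 hours, of a transgenic line that stably expresses sug with GFP fused to its C-terminus. The age comes from the source name and the antibody from the description in the labels. The age tag holds another number, which cannot be an embryo's age in hours, and the antibody tag names sug. The 2 biological replicates form 1 group, and there is no contrast between conditions. Embryos lacking the fusion were not analysed here. Depth is unknown because the files hold no read counts. In whole embryos, binding in few cells and weak binding in many cells cannot be told apart.

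Sug belongs to the zinc finger proteins akin to the Gli-similar (GLIS) factors. In flies it is known for being induced by a sugar-rich diet and for its part in the control of carbohydrate and lipid metabolism. A ChIP-seq summit is the position of highest read coverage in an enriched interval. IDR compares how summits rank in both replicates, and summits that recur at lower ranks can drop out although both replicates hold them. Here the IDR set equals the 9342 summits highest in pooled signal, with or without a partner in each replicate. Being left out of it is thus no verdict on a summit's own replicate ranks. Factors bind near transcription start sites (TSSs) as well as in introns and intergenic DNA, where many enhancers lie.

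The sequences below show what lies under members, 1 for each of the 6 words with the highest share at member summits relative to their flanks. Each is the 101 bp around the highest member in signal that has the word within 25 bp of its summit and lies outside UTRs, with the word in capitals. They were read from the RefSeq copy of the dm6 assembly. Motif 1 and the DNA replication-related element (DRE) are core promoter words of broadly expressed fly genes, and GATAAG is bound by GATA factors. The run of cytosines is part of the site known for GLIS proteins, of which ACCCCCCA is a core.
Motif 1 word, CG14715, chr3R:11671041-11671141, plus strand: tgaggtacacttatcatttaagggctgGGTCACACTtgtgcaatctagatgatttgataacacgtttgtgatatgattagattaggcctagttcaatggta
DRE word, CG43229, chrX:18138381-18138481, plus strand: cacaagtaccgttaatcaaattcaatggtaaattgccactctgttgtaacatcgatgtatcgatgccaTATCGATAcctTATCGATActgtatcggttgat
GLIS core word, Mob2, chr3L:11536091-11536191, plus strand: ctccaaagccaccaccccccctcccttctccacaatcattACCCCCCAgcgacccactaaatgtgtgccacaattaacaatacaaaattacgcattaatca
GATA word, CG9915, chrX:16313193-16313293, plus strand: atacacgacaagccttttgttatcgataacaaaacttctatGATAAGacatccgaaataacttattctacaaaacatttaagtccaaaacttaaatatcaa
run of 6 cytosines, CtBP, chr3R:13013131-13013231, plus strand: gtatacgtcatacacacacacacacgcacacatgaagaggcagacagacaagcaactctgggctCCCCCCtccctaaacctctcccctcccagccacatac
CA repeat, chinmo, chr2L:1669390-1669490, plus strand: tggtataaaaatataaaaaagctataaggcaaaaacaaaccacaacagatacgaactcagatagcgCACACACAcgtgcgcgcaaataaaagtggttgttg

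The stretch at CG9915, whose summit lies 105 bp upstream of the TSS, holds a DRE word besides its GATA word. The stretch at CG43229, 111 bp upstream of the TSS, holds 2 DRE words, and its GATA word, on the other strand, overlaps the latter of them. A GATA word also lies beside the Motif 1 word near CG14715, in an intron of CG42327. The summits at Mob2 and CtBP lie in introns 1663 bp and 1532 bp from the nearest TSS. The summit at chinmo, which encodes a transcription factor of neuronal and stem cell fate, lies in an intron 1593 bp downstream of a TSS. A match of letters is a description of the DNA and not a site of the factor.

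Members formed a narrow band of pooled signal directly under the IDR set. Their signal ran from 145.9 to 223.8 with a median of 182.1, on the authors' scale within the pooled list, against 223.8 to 24384 in the IDR set. They lay at pooled ranks 9343 to 13270. The deposited −log10 q stood at its highest value, 4.38, in 2139 members (71.3%) and in all IDR rows, so this column does not separate most members from the IDR set. The member highest in signal scored 223.8 and lay between genes, 5725 bp upstream of tRNA:Phe-GAA-1-7. At the lower limit, the 5 members just inside, named by their nearest TSS, were vari at 146.0 and Paris, Imp, ctp and prage, each at 145.9. The 5 summits just outside were sbm, CG46385, Dg and alpha-Est7, each at 145.9, and lncRNA:CR44544 at 145.8. Signal does not separate the members from what follows them at either end.

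The members' standing in the replicates follows from the rule, which took summits below pooled rank 9342, and is given as a description. The quartiles of the replicate 1 partners ran from 10275 to 14680 with a median of 12313, and those of the replicate 2 partners from 9686 to 14195 with a median of 11588. The median offset to the partner summit was 25 bp in replicate 1 and 23 bp in replicate 2. In 30 members (1.00%) both partners ranked among the 9342 highest of their lists. In 432 the replicate 1 partner alone did so, in 604 the replicate 2 partner alone, and in 1934 (64.5%) neither. The member within 1 kb of a TSS of ACC, which encodes acetyl-CoA carboxylase of fatty acid synthesis, ranked 5220 in replicate 1 and 29190 in replicate 2. The member at InR, the insulin receptor gene, ranked 24441 in replicate 1 and 4797 in replicate 2. At the other end, S6k, a kinase gene of the TOR pathway, had a member with ranks 7263 and 8060. The nearest IDR summit lay 205 bp from the member at ACC, 203 bp from that at InR and 211 bp from that at S6k. These distances are near 199 bp, the smallest spacing between summits of the list.

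**Figure D1:**
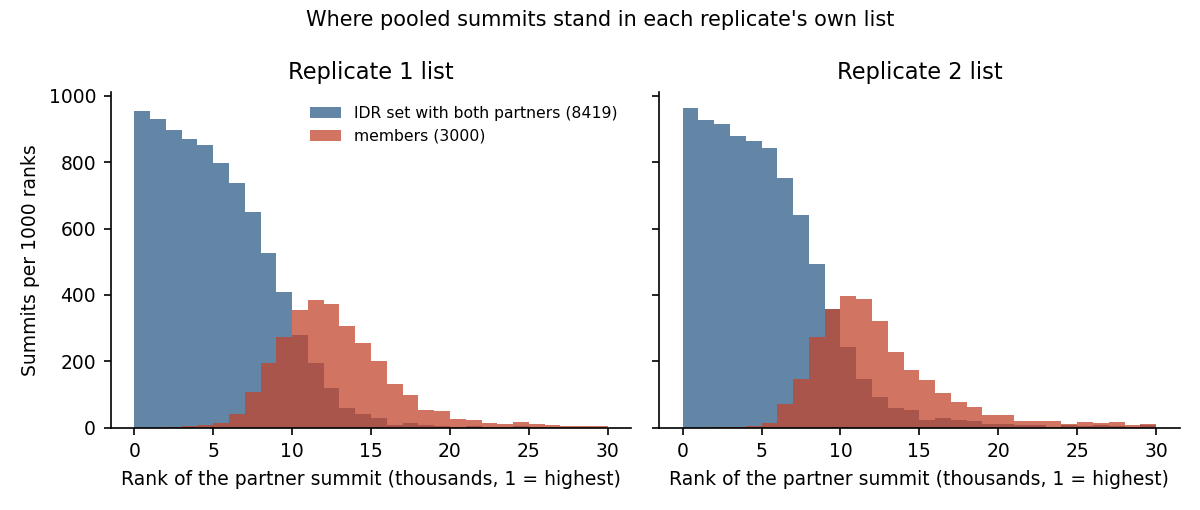
Number of pooled summits per 1000 ranks (y axis) by the rank of their partner summit in each replicate's own list (x axis, ranks divided by 1000), for members and for IDR summits with both partners. Members are most frequent at ranks 11001 to 12000 in replicate 1, with 384, and at 10001 to 11000 in replicate 2, with 397, where the IDR set still has 196 and 243.

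The 15 highest members spaced over 1 kb apart lay at genes of varied roles. UGP, which makes the UDP-glucose used for glycogen, had a member of signal 223.8 at 350 bp upstream of its TSS, with replicate ranks 7777 and 16968. An IDR summit lay next to it, at about the smallest spacing between summits of the list. PGRP-SC2, an amidase gene of the immune response to peptidoglycan, had a member of 223.7 at 121 bp upstream, with ranks 11279 and 8386, and the nearest IDR summit was 1533 bp away. Replicate 1 ranked the summit of UGP higher and replicate 2 that of PGRP-SC2. The member at pes, a gene of the CD36 scavenger receptor family, scored 223.6 at 45 bp upstream, and that at Srr, which encodes serine racemase, 223.4 at 73 bp downstream. Further promoter members of this group lay at ps, CG10494, CG42331, CG1640, Cdc14 and CG9915, with signals from 223.4 to 223.7. The member at tai, a coactivator gene of ecdysone signalling, scored 223.7 in an intron 1704 bp downstream, and prage, CG10734 and lncRNA:CR45411 were the nearest genes of the other non-promoter members.

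Location differed from that of the IDR set. Of the members, 1439 (48.0%, 95% Wilson interval 46.2 to 49.8%) lay within 1 kb of a TSS, called promoter here, against 64.8% (63.8 to 65.8%) of the IDR summits. The difference was −16.8 percentage points (Newcombe interval −19.6 to −14.0, at a joint level of 95% over 7 classes). Introns held 37.8% of members against 26.3%, a difference of 11.4 points (8.79 to 14.1), and intergenic DNA held 11.4% against 6.24%, a difference of 5.16 points (3.53 to 6.93). The intervals for the 5 prime UTR, 3 prime UTR, coding exons and other exons included 0, and these classes held at most 1.70% of members each. Among members outside promoters, 72.6% lay in introns and 21.9% between genes. Intervals cover the counting error of summits alone. Neighbouring summits are not independent and the intervals say nothing of the spread between embryo collections.

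Members lay a median of 1087 bp from the closest TSS, and IDR summits 370 bp. The 3000 IDR summits lowest in signal, from 223.8 to 328.7, had a promoter share of 61.3%, 13.4 points above the members (difference −13.4, −16.8 to −9.92). The 5393 reproducible summits that follow the members in signal had 35.9%, 12.1 points below them (9.05 to 15.1). Along the pooled list, summits with both partners had a promoter share of 60.7% at ranks 7001 to 8000, 59.6% at 8001 to 9000 and 53.5% at 9001 to 10000. It was 49.3% at ranks 10001 to 11000, 47.2% at 11001 to 12000 and 43.4% at 12001 to 13000. Within the members it was 53.0% in the 600 highest in signal and 44.5% in the 600 lowest, with intervals of 49.0 to 57.0% and 40.6 to 48.5% that do not overlap.

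**Figure D2:**
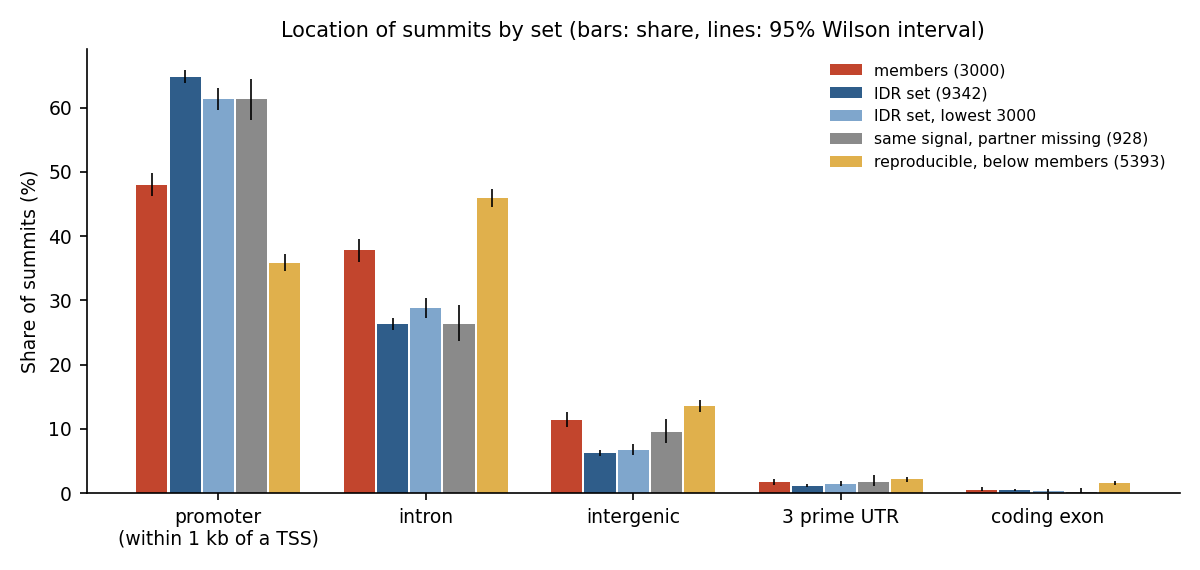
Share of summits (y axis, %) in 5 location classes for members, the IDR set, its lowest 3000, summits of the same signal without a partner and the reproducible summits below. Lines are 95% Wilson intervals, and members lie between the IDR set and the weaker reproducible summits in promoters, introns and intergenic DNA.

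Summits of the same pooled signal that lacked a partner in 1 or both replicate lists lay at promoters more often than members did. There were 928 such summits, with signal from 145.9 to 223.4, of which 61.3% (58.1 to 64.4%) lay at promoters. Members minus these gave −13.3 points (−18.2 to −8.33). Introns held 26.4% of them, 11.4 points under the members (6.67 to 15.8). The share without a partner that had the same interval as an IDR summit, with identical start and end, was 13.7%, against 4.50% of members. Set apart by distance to the nearest IDR summit, the difference in promoter share was −12.6 points up to 500 bp (−18.9 to −5.96) and −16.5 points beyond 5 kb (−23.9 to −8.81), each at a level of 95%. Between 500 and 1000 bp it was −7.95 points with an interval that included 0 (−17.3 to 2.09). Of the 928 summits, 380 lacked a partner in replicate 1 alone, 499 in replicate 2 alone and 49 in both. Their median offset to the nearest summit was 66.5 bp in replicate 1 and 126 bp in replicate 2. The size of the difference depended on how a partner was defined. With a partner required within 50 bp it was −6.51 points (−9.88 to −3.13) against 3314 summits without one. With a partner allowed up to 200 bp away it was −12.5 points (−19.4 to −5.21) against 376. When a partner in replicate 1 alone was enough, the difference was −5.77 points with an interval of −13.2 to 1.90, and over all 8393 reproducible summits and their 12157 partnerless counterparts it was 2.65 points (0.793 to 4.52).

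**Figure D3:**
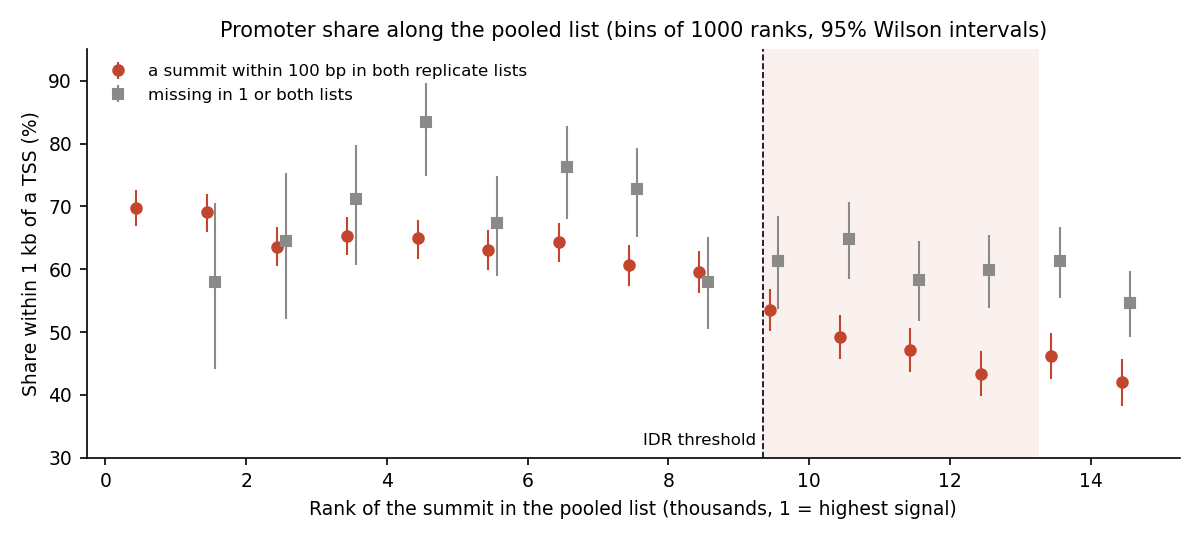
Promoter share (y axis, %) in bins of 1000 pooled ranks (x axis, ranks divided by 1000) for summits with a partner in each replicate and for those lacking 1 or both, with 95% Wilson intervals. The dashed line marks the IDR threshold and the shaded band the members, and summits with both partners have a share of 53.5% at ranks 9001 to 10000, a bin that still holds IDR rows, and of 43.4% at ranks 12001 to 13000. That of summits without a partner is 58.3 to 64.8% over these bins.

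Few members had the very interval of an IDR summit, meaning the same start and end. These were 135 (4.50%, 3.81 to 5.30%). Members whose interval only overlaps that of an IDR summit were not counted among them. The median distance to the nearest IDR summit was 1646 bp, 34.1% lay within 1 kb of one and 608 (20.3%) lay over 5 kb away. No summit of the pooled list was closer than 199 bp to another, and 524 members (17.5%) lay within 250 bp of an IDR summit, close to that smallest spacing. Their promoter share was 59.2% (54.9 to 63.3%). The promoter share of members dropped with distance, from 60.0% (56.0 to 64.0%) up to 500 bp to 55.6%, 44.6% and 38.5% (34.7 to 42.4%) beyond 5 kb. With the 3000 highest taken from summits over 500 bp from every IDR summit, the difference to the IDR set in promoter share was −20.2 points (−22.9 to −17.4).

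Among members over 5 kb from every IDR summit, 2 of the 10 highest lay at promoters. The member of CG10494, on 2R, scored 223.6 at 6 bp from the TSS, 13091 bp from an IDR summit. The member of dpp scored 222.9 at 748 bp upstream of a TSS and 20355 bp from an IDR summit, with ranks 10826 and 10029 in the replicates. The gene dpp encodes the BMP ligand that patterns the dorsal side of the embryo. The replicates placed the dpp summit at close ranks. In introns, sgg, which encodes the GSK3 kinase of Wnt signalling, had a member of 222.5 with ranks 9200 and 10717, and ine, a neurotransmitter transporter family gene, one of 223.2 with ranks 12653 and 8394. The intergenic member nearest CG10597 scored 222.2 and stood 51105 bp from the nearest IDR summit. The other 5 were nearest to lncRNA:CR45411, toc, lncRNA:CR43836, CG42700 and lncRNA:CR44549. In all, 128 members lay over 20 kb from an IDR summit.

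The X chromosome held more members than its share of the IDR set. Of the members, 619 (20.6%) lay on X, which makes up 17.6% of the length of the 6 arms, against 16.5% of IDR summits. The difference was 4.13 points (1.98 to 6.37, joint level of 95% over 6 arms). On 2R it was −2.45 points (−4.55 to −0.248), and the intervals for 2L, 3L, 3R and 4 included 0. The X share differed at promoters. There it was 22.3% of members against 15.4% of IDR summits, a difference of 6.88 points (4.60 to 9.27, here and in the next values at 95% each), while outside promoters it was 19.1% against 18.5%, a difference of 0.599 points (−1.72 to 3.0). The promoter difference exceeded the other by 6.28 points (2.97 to 9.61). With only the lowest 3000 of the IDR set the same contrast was 6.31 points (2.28 to 10.4). Summits of the same signal without a partner had an X share of 21.8% at promoters, and reproducible summits below the members 20.5%.

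Promoter members lay less often upstream of the TSS than IDR summits. Upstream of the nearest TSS lay 57.5% (54.9 to 60.0%) of the 1439 promoter members and 66.0% (64.8 to 67.2%) of the IDR promoter summits. In the lowest 3000 of the IDR set it was 60.1% (57.9 to 62.3%), an interval that overlaps that of the members. The median distance was 156 bp for members and 133 bp for the IDR set, and 21.5% against 16.9% lay over 500 bp away. Of the promoter members, 758 (52.7%) lay where every gene also has an IDR summit at its promoter. For 588 (40.9%) no gene there has one, and 93 (6.46%) lay between genes of both kinds. Promoters of more than 1 gene held 487 of them (33.8%), so a gene count exceeds a summit count.

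Genes with a member were in the majority also genes of the IDR set. Of 13945 protein-coding genes, 5485 (39.3%) have an IDR summit at the promoter and 1584 (11.4%) have a member there. Of the latter, 892 (56.3%) have both. The remaining 692 are 8.18% of the 8460 protein-coding genes without an IDR summit at the promoter. Among other genes without one, 149 of 3375 (4.41%) have a member. The count of 692 was 385 with the 1500 highest members and 1279 with all 8393 reproducible summits. The lists of genes below are read against these shares as descriptions, since they and the members were chosen with earlier results in view.

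Muscle genes were the list with the largest share gained at the promoter among the lists of more than 2 genes without an IDR summit. Of 23 muscle genes, 7 have an IDR summit and 6 of the other 16 (37.5%, against 8.18% of all protein-coding genes) have a member. Mhc, the muscle myosin heavy chain gene, had a member of signal 201.2 at 62 bp from its TSS, with ranks 9355 in replicate 1 and 13952 in replicate 2. It was the only one of the 6 among the 1500 highest members. The thin filament gene wupA, which encodes troponin I, had one of 158.8 at 59 bp, with ranks 14345 and 12197. Mlp84B, a LIM protein gene of the sarcomere, had one of 146.7 at 171 bp, with ranks 15281 and 17320. The cell adhesion genes of myoblast fusion had members as well. The gene sns had one 167.4 at 2 bp from the TSS and 63600 bp from an IDR summit, kirre one of 157.3 and rst one of 155.3. The partners of all but Mhc ranked beyond 10000 in both replicates. Promoters with both an IDR summit and a member were those of rols (206.2), Mef2 (181.6), how (161.5) and Tm1 (155.8). In all, 10 of 23 muscle genes (43.5%) have a member, against 11.4% of all protein-coding genes. For how and Tm1 the IDR summit lay 199 bp and 208 bp away.

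Some genes of the hedgehog, sugar response and autophagy lists had a member and no IDR summit at the promoter. Beside the 8.18% over all protein-coding genes, the counts of 1 or 2 genes per list are too small to set these lists apart. In the hedgehog list, 2 of 6 such genes had one. The gene hh, which encodes the ligand, had a member of 208.6 at 97 bp with ranks 11370 and 9174, and ihog, a coreceptor gene, one of 186.2 at 50 bp with ranks 11045 and 12869. The receptor gene ptc (146.9) and rdx (214.9), which encodes an adaptor for the breakdown of Ci, had members at promoters that also have an IDR summit. In the sugar response list, Myc, a growth regulator gene, had a member of 213.5 at 3 bp with ranks 9131 and 11364, 5514 bp from an IDR summit. The TSS nearest to that summit is that of lncRNA:CR44999. Only Klf15 of the 14 genes of that list had neither kind of summit, and sug itself had an IDR summit and no member. In the autophagy list, 2 of 7 genes had one, Atg5 with 216.5 and ranks 17773 and 6333, and Atg1, the starting kinase gene, with 181.2 and ranks 11014 and 10908. The replicates ranked Atg1 alike and Atg5 far apart.

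**Figure D4:**
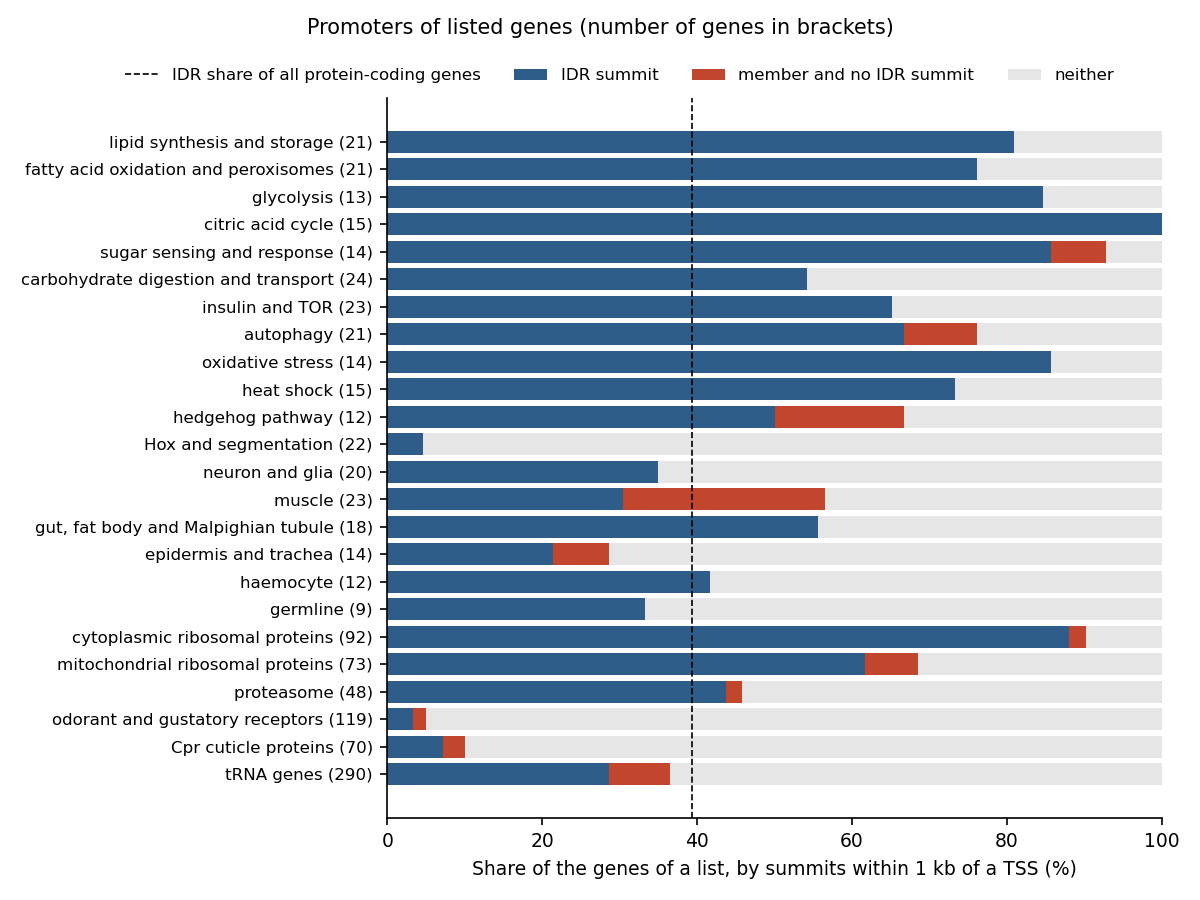
Share of the genes of each of 24 lists (x axis, %) with an IDR summit, with a member and no IDR summit, or with neither within 1 kb of a TSS, with the number of genes in brackets. The dashed line is the IDR share of all protein-coding genes, 39.3%, and the member segment is longest for the 23 muscle genes.

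Genes of the metabolic lists had members mostly where the promoter also has an IDR summit, which most of these genes have. All 15 citric acid cycle genes, 11 of 13 glycolysis genes, 17 of 21 lipid synthesis and storage genes and 16 of 21 fatty acid oxidation and peroxisome genes have an IDR summit. None of the genes without one in these lists has a member (0 of 2, 0 of 4 and 0 of 5), and neither has any of the 11 in the carbohydrate digestion and transport list. Against the 8.18% of all protein-coding genes without an IDR summit, lists this small can hold 0 without standing apart. Over all protein-coding genes, 892 of the 5485 with an IDR summit at the promoter also have a member there. Among the genes of the lists, members at promoters with an IDR summit lay from about the smallest spacing to 1891 bp from the nearest IDR summit. The lipid list had 5, at Men (223.2), which encodes malic enzyme, Desat1 (210.4), a fatty acid desaturase gene, ACC (174.8), Agpat3 (159.8) and Lsd-2 (154.8). For Desat1 the IDR summit was 204 bp away and for ACC 205 bp, near the smallest spacing of the list. In the citric acid cycle Mdh2 (217.4), SdhB (194.9), kdn (184.6) and SdhC (173.5) had a member, and in fatty acid oxidation Acsl (208.4), scu (206.7), whd (161.4) and Hnf4 (147.0). Ald1 (187.7) in glycolysis and Treh (217.4), the trehalase gene, had 1 each. In the oxidative stress list 5 of 14 genes had a member at a promoter with an IDR summit, among them Gclc (220.8) and Gclm (177.2), the subunit genes of the enzyme that starts glutathione synthesis. In the insulin and TOR list these were ImpL2 (209.6), Ilp6 (190.9), InR (170.5) and S6k (158.1), and 0 of the 8 genes without an IDR summit has one. For ACC, kdn, Acsl, scu and Gclm the TSS nearest to the summit is that of another gene, Nup44A, ND-B16.6, UQCR-11L, Swt1 and CG17625.

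Ribosomal protein genes of mitochondria had 5 members among 28 genes without an IDR summit, at mRpL33 (223.2), mRpS17 (186.6), mRpL22 (184.1), mRpS28 (159.5) and mRpS25 (157.6). In all but mRpL22 the TSS nearest to the summit is that of another gene, norpA, Nop60B, CG5323 and nmdyn-D6. Cytoplasmic ones had 2 among 11, RpL40 (217.0, ranks 14126 and 7301) and RpS6 (171.0, ranks 16161 and 8225). The TSS nearest to the RpS6 summit is that of bys. The proteasome had 1 among 27, Prosbeta6 (170.1). The intervals of these shares (7.88 to 35.6%, 5.14 to 47.7% and 0.657 to 18.3%) include the 8.18% of all protein-coding genes without an IDR summit. Replicate 2 ranked both cytoplasmic ones higher than replicate 1 did. In other lists the counts were small, and with 8.18% over all protein-coding genes without an IDR summit a count of 0 in so few genes is near that share. Of 22 Hox and segmentation genes 1 has an IDR summit, and 0 of the other 21 has a member. In the neuron and glia list the count was 0 of 13, in the haemocyte list 0 of 7, in the germline list 0 of 6 and in the gut, fat body and Malpighian tubule list 0 of 8. In the heat shock list it was 0 of 4. In the epidermis and trachea list 1 of 11 had one, kkv (147.4), the chitin synthase gene. Of the Cpr cuticle genes 2 of 65 had one (3.08%, 0.848 to 10.5%). Of the odorant and gustatory receptor genes 2 of 115 had one (1.74%, 0.478 to 6.12%), an interval that lies below 8.18%. These 2, Or10a and Gr10a, share a single member of 149.8.

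Of 290 tRNA genes, 83 have an IDR summit and 23 of the other 207 (11.1%) have a member. Among all genes without an IDR summit that are not protein-coding, the share was 4.41%, and it includes these tRNA genes. These 23 genes lie by only 14 summits, because tRNA genes stand in clusters. The highest was 221.3, shared by tRNA:Tyr-GTA-1-1 and tRNA:Tyr-GTA-2-1, followed by tRNA:Gln-TTG-2-1 at 220.6. A single member of 155.9 lay within 1 kb of 4 genes, among them tRNA:Asn-GTT-1-4 and tRNA:Lys-CTT-1-2. Many tRNA genes are near-identical copies, and how reads with several matches were placed is unknown.

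Some long genes held several members each, and counts per gene were not compared with gene length. Between 1 kb before the start and the end of a gene, 2145 protein-coding genes had a member and 235 had 3 or more. The gene bun, which encodes a leucine zipper factor of the TSC22 family, had 9 members and 26 IDR summits over 91.1 kb, with member signals from 149.6 to 210.0. NK7.1, a homeobox gene, had 8 members and 5 IDR summits over 43.5 kb, and 7 of its members were intronic. The gene jing, which encodes a zinc finger factor of glial and tracheal development, had 8 and 6 over 120 kb, and rdx 8 and 16 over 65.0 kb. CG12535 and CG46385 had 7 members each, as had others at equal rank. Among these, EcR and Eip75B, the ecdysone receptor gene and an early gene of the hormone's response, had 8 and 29 IDR summits. The EcR members include those of signal 208.0, 193.6, 183.2 and 155.9, which also lie within 1 kb of tRNA genes and were counted there. In NK7.1 and jing members outnumbered IDR summits, as they did in brat and fz2 with 7 members and 6 IDR summits each. Intronic members lay in host genes of 31.0 kb median length, and 32.9% lay over 5 kb from a TSS.

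Of 17 words searched, the GATA word, the run of 6 cytosines and the DRE word had lower shares at member summits than at IDR summits, and for the other 14 the interval of the difference included 0. Within 100 bp of the summit, on either strand, GATAAG lay at 599 members (20%, 18.6 to 21.4%), 1.99 times its share in windows of the same length centred 500 bp to each side, and at 25.8% of IDR summits. The difference to the IDR set was −5.84 points (−8.33 to −3.23, joint level of 95% over 17 words). Against the lowest 3000 of the IDR set (22.7%) it was −2.77 points with an interval that included 0 (−5.91 to 0.381), and against the reproducible summits below it was 6.91 points (4.39 to 9.52). Of the windows around protein-coding TSSs 12.3% hold it. Outside promoters the share was 21.5% of members and 31.0% of IDR summits, a difference of −9.50 points (−13.3 to −5.50), and at promoters 18.3% and 23.0%, a difference of −4.66 points (−7.94 to −1.08). With the 1500 highest members the overall difference was −3.41 points (−6.74 to 0.201).

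The run of CCCCCC lay at 210 members (7.00%, 6.14 to 7.97%) against 3.98% in the flanks, at 9.07% of IDR summits, and at 1.85% of windows around protein-coding TSSs. Members minus the IDR set gave −2.07 points (−3.63 to −0.331). This did not hold against the lowest 3000 of the IDR set, whose share was 6.50% (difference 0.50, −1.44 to 2.44), with the 1500 highest members (−1.40, −3.43 to 1.05), with a partner within 50 bp (−1.57, −3.17 to 0.206), with windows of 200 bp on each side (−1.42, −3.36 to 0.689) or with summits over 500 bp from IDR summits (−1.33, −2.95 to 0.457). Outside promoters 8.97% of members and 13.0% of IDR summits held the run, a difference of −4.02 points (−6.68 to −1.12). At promoters the shares were 4.86% and 6.94% with an interval that included 0. ACCCCCCA, which contains the run, lay at 21 members (0.700%) and 0.910% of IDR summits, and GACCACCCA, the site of Gli proteins, at 2 members.

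**Figure D5:**
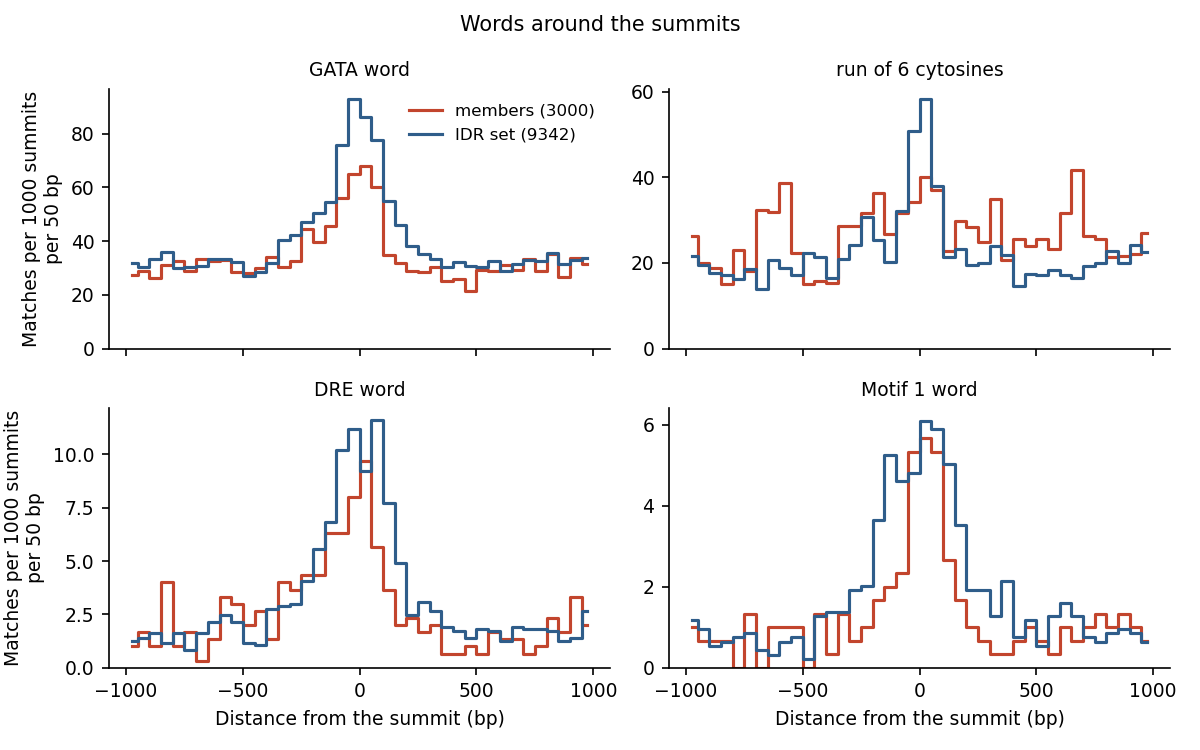
Matches per 1000 summits in bins of 50 bp (y axis) by distance from the summit (x axis, bp) for 4 words, for members and the IDR set. All 4 words peak around the summits of the IDR set, the GATA word peaks lower in members, at 68.0 against 93.0 matches, and the run of 6 cytosines in members reaches 40.0 at the summit and 41.7 in the bin starting 650 bp to the right of it.

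The core promoter words followed the promoters. TATCGATA, the DRE word, lay at 76 members (2.53%) against 0.717% in the flanks and at 3.76% of IDR summits, a difference of −1.22 points (−2.18 to −0.0837). At promoters the shares were 4.52% of members and 5.57% of IDR summits, with an interval of the difference that included 0 (−2.71 to 1.04). The overall interval included 0 in 5 of the 13 alternatives, as without replicate 2 (−2.04 to 0.106). GGTCACACT, the Motif 1 word, lay at 53 members (1.77%), 6.62 times its flank share, and at 2.08% of IDR summits (difference −0.310, −1.07 to 0.646). Of these 53, 47 were at promoters. CACACACA lay at 8.41% of promoter members against 6.13% of IDR promoter summits, a difference of 2.28 points (0.115 to 4.86). The other words searched were the Sp box CCGCCC, the KLF word CCACACCC, the bHLH word CACGTG, the E box CAGCTG, the GAGA word GAGAGAG, the TATA box TATAAA, the AP-1 word TGACTCA, the antioxidant response word TGACNNNGC, the bZIP word TTACGTAA and the Zelda word CAGGTAG. For these the share at member summits was 1.01 to 1.37 times that in the flanks. None of the 17 words lay within 100 bp of 954 members (31.8%), against 27.7% of the IDR set. The median GC content of the window was 40.8% in members and 41.3% in the IDR set.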

How the data were processed

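ChIP-seq peak lists of 2 biological replicates, their pooled list and the IDR set were used. Per the text files deposited with the lists, the build was dm6, the authors called peaks for each replicate and for the pooled alignments against a control, and they derived the IDR set from these 3 lists. The names and versions of the aligner and peak caller were not given in the sources used here. The control itself was not analysed here. Fragments measured 200 to 800 bp per the labels. The authors deposited for each summit a signal value, comparable only inside 1 list, and a −log10 q. Summits were ranked by signal within a list. Each list holds exactly 30000 rows, and 21 rows of replicate 1 are mitochondrial.

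The members and the gene lists were chosen with earlier results of these data known. A summit is the interval start plus the deposited offset, written 1-based, and in 1 member it lay at or past the interval's end. Genes and TSSs came from Ensembl release 115 on dm6 (18164 genes on 6 arms, without transposable elements) and sequence from RefSeq, and no summit lay past a chromosome end. Classes were assigned in the order promoter, UTRs (5 prime before 3 prime), coding exons, further exons, introns, intergenic. Of the symbols in the 24 gene lists, 7 were matched through RefSeq synonyms and 7 were not matched. Shares have 95% Wilson intervals and differences Newcombe intervals, at 99.29% each over 7 classes and 99.71% each over 17 words. A difference was called when its interval left out 0, and no p-value was computed. The interval, class and word functions were tested on simulated data. Words were searched on both strands, and some overlap, as CCCCCC within ACCCCCCA.

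Named were the 15 highest members over 1 kb apart, the 10 highest over 5 kb from IDR summits, 5 on each side of the lower limit, the 6 genes with the most members (EcR and Eip75B, tied at 7, were added after their values were seen), and up to 4 genes per list with a member and no IDR summit. Genes named beyond these were chosen after their values were seen. Alternatives were other partner distances, 1 replicate alone, other numbers of members, 1 summit per interval, other promoter and word windows and other IDR rows. The comparisons with IDR rows that have both partners, with summits over 500 bp from IDR summits, and of words and X shares within location classes were added after the data were seen. Computations used Python 3.11.15, numpy 2.4.6, pandas 2.3.3 and scipy 1.17.1.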

Additional observations from a re-analysis of the deposited data

How the results depend on the processing

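The promoter share of members stayed below that of the IDR set under all 13 alternatives, with differences from −24.6 to −12.8 points and no interval that included 0. Against summits of the same signal without a partner, the difference ranged from −16.9 to −5.77 points when 1 replicate was left out, with the interval reaching 0 without replicate 2, and it was −6.51 points with a partner within 50 bp and 2.65 points, in the other direction, over all reproducible summits, where the summits compared reach down the whole list. The share of members in the interval of an IDR summit was 4.50% and moved to 6.53% with partners within 200 bp, 5.40% in the 1500 highest and 2.59% in all reproducible summits, and it was 4.97 to 6.83% when 1 replicate was left out. Protein-coding genes with a member and no IDR summit numbered 385 with the 1500 highest and 1279 with all reproducible summits, since fewer or more summits were counted, and 620 to 800 otherwise. The difference in the run of 6 cytosines had an interval that included 0 with a partner within 50 bp (−1.57), the 1500 highest (−1.40), windows of 200 bp (−1.42) and summits over 500 bp from IDR summits (−1.33), and against the lowest 3000 IDR rows it was 0.50. The cause was not tested.

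Of 85 recomputed values for intron, intergenic and X shares, the GATA and DRE words and muscle and tRNA genes, 74 kept their direction and their side of 0 or stayed within 1.5 times, 7 word differences came to include 0, 4 counts moved by more and 0 reversed. No paired analysis was possible because there is a single group. Depth is unknown, so what it limits was not assessed, and 2 replicates allow no outlier test. The IDR set, its lowest 3000, the members and the reproducible summits below are bands of a list ranked by signal, so they differ in signal by construction.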
